A study of Mus musculus with 6 samples.

Results

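The genes of the urea cycle and of periportal nitrogen breakdown were compared between the livers of 3 WT and 3 *Sirt7* KO mice. The group was set by name and holds 10 genes, *Cps1*, *Otc*, *Ass1*, *Asl*, *Arg1*, *Nags*, *Slc25a15*, *Gls2*, *Sds* and *Hal*, of the 54115 genes with a transcript in the deposited data. All 10 passed the filter on low counts and were among the 12524 genes tested. All animals were males aged 24 months, and every liver was taken after a fast of 16 h, so both genotypes shared age, sex and fasting. WT mice carried intact *Sirt7*, and *Sirt7* KO mice were their littermates from crosses of heterozygotes on a C57BL/6J background, carrying an inherited knockout that was not limited to the liver. RNA came from whole liver, of which 1 ng was turned into cDNA with the SMART-seq HT kit, and the study compared the genotypes to ask which hepatic genes differ in aged mice without SIRT7, a NAD-dependent deacylase.

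The urea cycle turns ammonia, which is toxic, into urea that the kidney excretes. Carbamoyl phosphate and citrulline are made inside the mitochondria of hepatocytes, and the remaining steps run in the cytosol. These enzymes are most abundant in the hepatocytes around the portal vein, together with enzymes that release nitrogen from glutamine, serine and histidine. In fasting, amino acids are burned for glucose, and glucagon and glucocorticoids are known to raise the expression of many of these genes.

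*Sirt7* itself was at 55.2, 45.5 and 47.3 CPM (the counts of a gene relative to its library's size after TMM scaling) in the WT livers and at 28.6, 41.8 and 40.8 CPM in the *Sirt7* KO livers. Every *Sirt7* KO liver was below every WT liver, with a log2 fold change of -0.41 (standard error 0.18, adjusted p = 0.42 from edgeR, where p-values measure the spread between these mice), and the total of a gene does not tell reads over the deleted part from reads elsewhere in it. Between 9994860 and 13424776 reads per liver were assigned to transcripts, and the 10 genes took 0.645%, 0.672% and 0.727% of the reads on genes in the WT livers and 0.537%, 1.047% and 0.845% in the *Sirt7* KO livers. The lowest and the 2 highest of these shares were thus in *Sirt7* KO livers. Of 8 hepatocyte markers 7 were found by symbol. Their summed level was 57340 to 60130 CPM in WT livers and 63890 to 70430 CPM in *Sirt7* KO livers, without overlap. Only 4 of the 7 had a log2 fold change above 0, and 0 of the 7 an unadjusted p under 0.05 in edgeR, so the sum does not stand for each marker. The part of this difference in sums in the values below was not tested. In whole tissue a smaller share of a cell type cannot be told apart from less RNA per cell. *Arg1* is also made by macrophages, whose 8 markers summed to 68.0 to 184.6 CPM in WT livers and 64.9 to 176 CPM in *Sirt7* KO livers. The summed ranges of the other marker lists overlapped between genotypes as well: 1.09 to 4.32 against 1.48 to 6.32 CPM for 5 neutrophil genes, of which *Ly6g* was at 0 in all livers, 47.3 to 72.7 against 53.4 to 71.0 CPM for 6 cholangiocyte genes, 61.3 to 82.0 against 69.0 to 99.6 CPM for 6 sinusoidal endothelial genes, 165 to 208 against 135 to 212 CPM for 6 stellate cell genes, 12.2 to 18.5 against 10.6 to 17.3 CPM for 6 lymphocyte genes and 374 to 546.5 against 446 to 915 CPM for 5 red blood cell genes. Of the red blood cell genes, 1 of 5 had an unadjusted p under 0.05 and 5 of 5 a log2 fold change above 0, while in each of the other lists 0 genes had such a p.

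Across the 10 genes, levels tended to be higher in the *Sirt7* KO livers on average, but no gene passed the test. The log2 fold change was above 0 in 9 of the 10 genes, as in 49.3% of all tested genes, and its median was 0.28, while that of all tested genes was -0.0061. By edgeR's quasi-likelihood test, 0 of the 10 genes were called at an adjusted p under 0.05 and a fold change over 1.5, where 0.00798% of all tested genes were called. None of the 10 reached an unadjusted p under 0.05 in edgeR, as 11.3% of all tested genes did. With a fold change over 1.5 as well, 7.39% of all tested genes passed at the unadjusted threshold and again 0 of the 10. DESeq2 with length offsets called 0 of them and 1.81% of the 13267 genes to which it gave an adjusted p. It had 2 (without length offsets) or 1 (with them) at an unadjusted p under 0.05. Over all genes the shares were 5.16% and 5.37%, but of 27862 genes, low counts included. They are thus not on the same footing as the 11.3% of the 12524 genes in edgeR. The genotypes overlapped in all 10 genes, whereas they did not in 16.8% of all tested genes (8.74% higher and 8.09% lower in *Sirt7* KO livers). *Sirt7* KO liver 1 was within or below the range of the WT livers in all 10 genes. *Sirt7* KO liver 2 was above that range in all 10 and *Sirt7* KO liver 3 in 7.

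**Figure D1:**
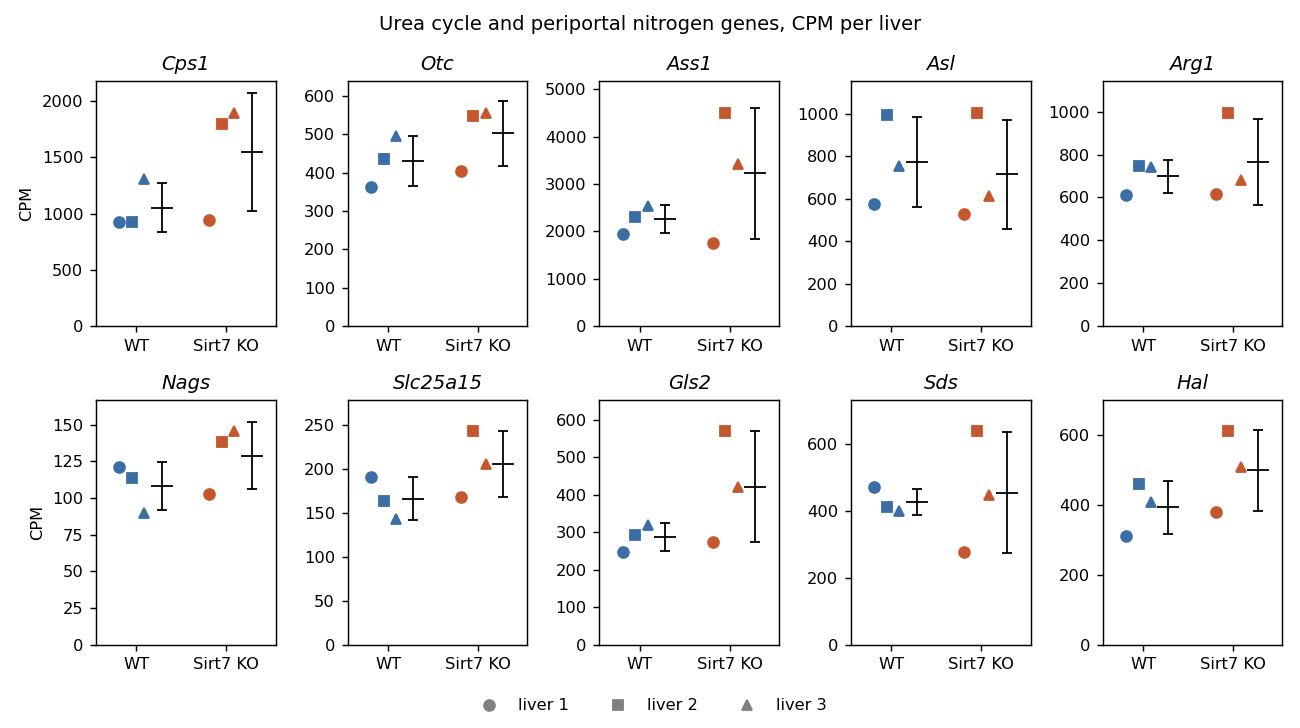
CPM of each gene in each liver (y axis, from 0; marker shape gives the liver number, colour the genotype), with the mean and SD of each genotype in black. *Sirt7* KO liver 1 is the lowest *Sirt7* KO liver in all 10 panels, as in *Cps1*, where it is at 940.3 CPM against 1800 and 1895 CPM in the others.

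The cycle starts in the mitochondria, where *Cps1* (carbamoyl phosphate synthetase 1, chr1:67123026-67231259, plus strand, GRCm38) joins ammonia to bicarbonate. *Cps1* was at 924, 927 and 1306 CPM in the WT livers and at 940.3, 1800 and 1895 CPM in the *Sirt7* KO livers. The group means were 1053 ± 219.9 CPM (SD, n = 3) and 1545 ± 526 CPM (SD, n = 3), and *Sirt7* KO liver 1 lay inside the WT range. The log2 fold change was 0.55 (standard error 0.28, 95% interval -0.072 to 1.18, adjusted p = 0.50 from edgeR), an average of 1.47-fold. *Nags* (chr11:102145513-102149477, plus strand), which makes the N-acetylglutamate that CPS1 needs as an activator, was at 122, 113 and 90.0 CPM in the WT livers and 103, 138 and 145 CPM in the *Sirt7* KO livers. Its highest WT liver was WT liver 1, the lowest for *Cps1*, and its log2 fold change was 0.25 (95% interval -0.16 to 0.66, adjusted p = 0.66 from edgeR).

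*Otc* (ornithine transcarbamylase, chrX:10252305-10321024, plus strand) forms citrulline from carbamoyl phosphate and ornithine. It was at 363, 436 and 494.5 CPM in the WT livers and 405.5, 549 and 556 CPM in the *Sirt7* KO livers. Of the *Sirt7* KO livers, numbers 2 and 3 exceeded the WT range by a small margin, and the log2 fold change was 0.22 (standard error 0.18, 95% interval -0.20 to 0.64, adjusted p = 0.70 from edgeR). *Slc25a15* (chr8:22375551-22398597, minus strand) encodes the carrier that exchanges ornithine and citrulline across the inner mitochondrial membrane. Its values were 192, 164 and 143 CPM in the WT livers and 169, 243 and 206 CPM in the *Sirt7* KO livers, again with livers 2 and 3 above the WT range. Its log2 fold change was 0.31 (95% interval -0.100 to 0.72, adjusted p = 0.57 from edgeR).

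In the cytosol, *Ass1* (argininosuccinate synthase, chr2:31470207-31520672, plus strand) joins citrulline to aspartate. *Ass1* was at 1951, 2308 and 2538 CPM in the WT livers and at 1752, 4503 and 3417 CPM in the *Sirt7* KO livers. The *Sirt7* KO livers thus held both the lowest and the 2 highest values, and their coefficient of variation was 43.0% against 13.1% in the WT livers. The log2 fold change was 0.51 (standard error 0.31, 95% interval -0.19 to 1.21, adjusted p = 0.59 from edgeR). *Asl* (argininosuccinate lyase, chr5:130011258-130029247, minus strand), which releases arginine and fumarate, was the only gene of the 10 with a log2 fold change below 0 in the fit of all 6 livers, and its sign was positive without WT liver 2 or *Sirt7* KO liver 1. Its values were 574, 994 and 752 CPM in the WT livers and 527, 1004 and 612 CPM in the *Sirt7* KO livers, with liver 2 the highest of each genotype. Its log2 fold change was -0.12 (95% interval -0.75 to 0.52, adjusted p = 0.92 from edgeR). *Arg1* (arginase 1, chr10:24915221-24927484, minus strand) splits arginine into urea and ornithine and closes the cycle. It was at 611, 746 and 741 CPM in the WT livers and 617, 994.5 and 683 CPM in the *Sirt7* KO livers, so that only *Sirt7* KO liver 2 stood above the WT range. Its log2 fold change was 0.13 (95% interval -0.34 to 0.60, adjusted p = 0.86 from edgeR), and without *Sirt7* KO liver 2 it was -0.105.

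Of the periportal enzymes outside the cycle, *Gls2* (liver-type glutaminase, chr10:128194457-128210004, plus strand) frees ammonia from glutamine. *Gls2* was at 245.5, 293 and 319 CPM in the WT livers and at 273, 568 and 421.5 CPM in the *Sirt7* KO livers. It had the smallest p of the 10 genes, with a log2 fold change of 0.56 (standard error 0.25, 95% interval -0.0097 to 1.13, unadjusted p = 0.053 and adjusted p = 0.45 from edgeR). *Sds* (serine dehydratase, chr5:120476526-120483932, plus strand) turns serine into pyruvate and ammonia. It was at 470.4, 411 and 399 CPM in the WT livers and 276, 638 and 448 CPM in the *Sirt7* KO livers. The WT livers lay within a narrow band inside the wide *Sirt7* KO range, and the log2 fold change of 0.088 (95% interval -0.52 to 0.70, adjusted p = 0.94 from edgeR) was -0.034 with scaling to total counts and -0.24 without *Sirt7* KO liver 2. *Hal* (histidine ammonia-lyase, chr10:93488768-93519304, plus strand), which opens the breakdown of histidine, was at 311, 461 and 410.2 CPM in the WT livers and 379, 611 and 509 CPM in the *Sirt7* KO livers. *Sirt7* KO livers 2 and 3 were above the WT range, and the log2 fold change was 0.34 (95% interval -0.15 to 0.83, adjusted p = 0.60 from edgeR).

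For each gene the genotypes were also compared by exact permutation of log2(CPM + 0.5), in a two-sided test whose smallest possible p with groups of 3 is 0.1. The exact p was 0.2 for *Cps1* and *Slc25a15*, 0.3 for *Otc*, *Nags*, *Gls2* and *Hal*, 0.4 for *Ass1*, 0.8 for *Asl* and *Arg1* and 1 for *Sds*. As the intervals above show, an increase of 2-fold or more lay within the 95% interval of *Cps1*, *Ass1* and *Gls2*, and outside that of the other 7 genes.

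The 10 genes varied together from liver to liver within the *Sirt7* KO group. Relative to the mean of the WT livers, the median of the 10 genes was -0.20, 0.040 and 0.083 on the log2 scale in WT livers 1, 2 and 3, and -0.11, 0.57 and 0.38 in *Sirt7* KO livers 1, 2 and 3. All 10 genes were above the WT mean in *Sirt7* KO liver 2, 8 in *Sirt7* KO liver 3 and 1, *Slc25a15*, in *Sirt7* KO liver 1. *Sirt7* KO liver 1 was the lowest of its genotype in 10 of the 10 genes, where it was the lowest in 37.9% of all tested genes and the highest in 38.3%. Of all 6 livers, *Sirt7* KO liver 2 was the highest in 7 genes and *Sirt7* KO liver 3 in the other 3, *Cps1*, *Otc* and *Nags*. The range between *Sirt7* KO livers had a median of 0.81 over the 10 genes on the log2 scale, against 0.43 between WT livers, and over all tested genes these medians were 0.52 and 0.46. The gap between *Sirt7* KO liver 1 and the mean of livers 2 and 3 was widest in *Ass1* (1.16), *Cps1* (0.97), *Sds* (0.95) and *Gls2* (0.84) and narrowest in *Slc25a15* (0.41).

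**Figure D2:**
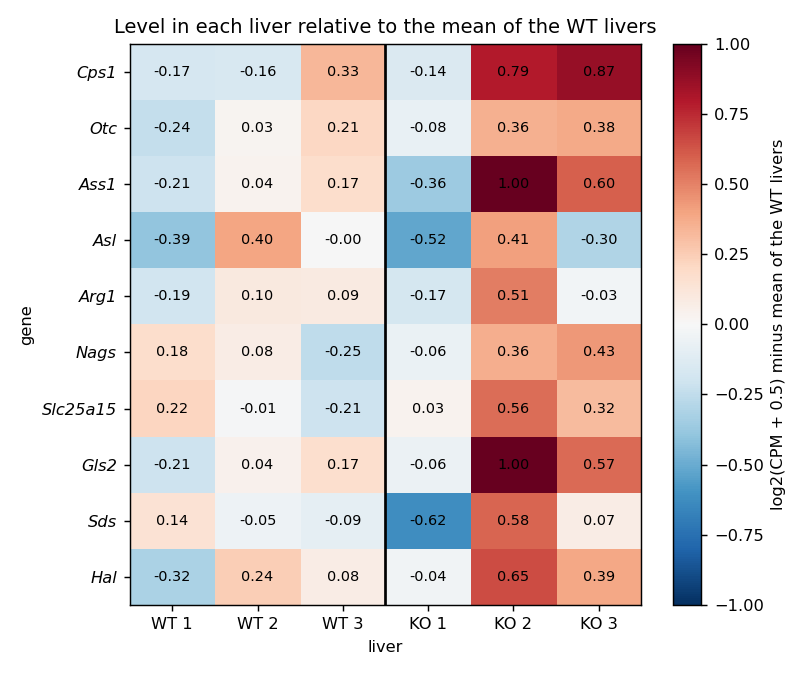
Log2(CPM + 0.5) of each gene (rows) in each liver (columns) minus the mean of the 3 WT livers, with red for higher and blue for lower values. *Sirt7* KO liver 2 is above the WT mean in all 10 rows (0.36 in *Otc* to 1.00 in *Gls2* and *Ass1*), and *Sirt7* KO liver 1 is below it in all rows but *Slc25a15*.

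Of the mice left out singly, *Sirt7* KO liver 1 moved the median of these genes most. It was the lowest of its genotype in all 10 genes, so its omission had to raise their *Sirt7* KO means. The values without this liver are therefore a description and no test of the genotype. Without it, 6 of the 10 genes had an unadjusted p under 0.05 in edgeR (*Cps1*, *Ass1*, *Nags*, *Slc25a15*, *Gls2* and *Hal*), against 17.1% of all tested genes, and all 10 log2 fold changes were above 0, with a median of 0.41. *Gls2* was then at 0.79 (standard error 0.18, adjusted p = 0.072 from edgeR), *Cps1* at 0.81 (standard error 0.19, adjusted p = 0.073 from edgeR) and *Ass1* at 0.81 (standard error 0.19, adjusted p = 0.073 from edgeR). Still 0 of the 10 were called, while 1.95% of all tested genes were. The labels give no reason to set this liver apart, so the fit of all 6 livers stands as the result. Leaving out *Sirt7* KO liver 2 instead moved the genes the other way, with a median of 0.17 and 7 of the 10 log2 fold changes above 0. *Ass1* was then at 0.19 (adjusted p = 0.94 from edgeR), *Gls2* at 0.28 (adjusted p = 0.85 from edgeR) and *Cps1* at 0.43 (adjusted p = 0.83 from edgeR).

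**Figure D3:**
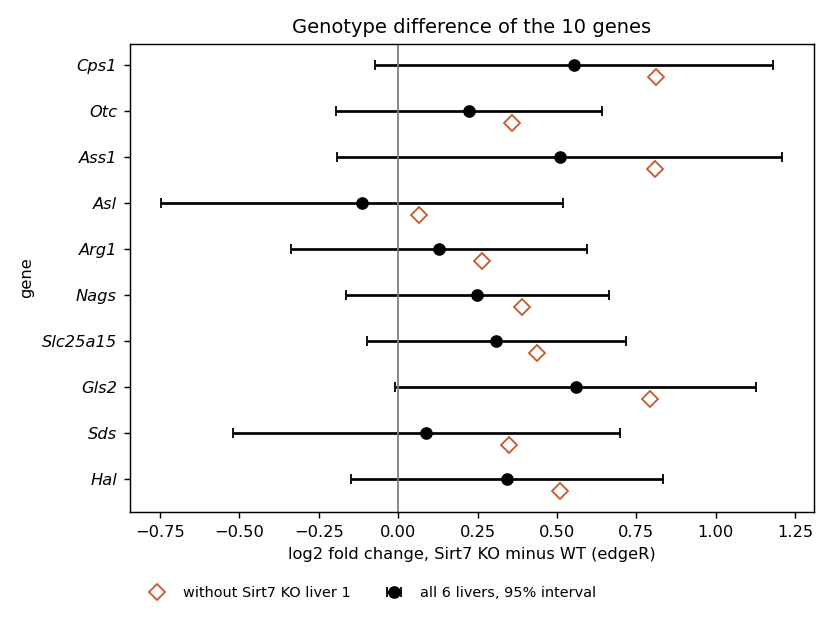
Log2 fold change of each gene between *Sirt7* KO and WT livers (x axis; black points with 95% intervals from edgeR on all 6 livers) and without *Sirt7* KO liver 1 (open diamonds). All 10 intervals include 0, the closest being *Gls2*, whose interval starts at -0.0097. Every diamond lies to the right of its black point, a direction set beforehand, since that liver was the lowest *Sirt7* KO liver in all 10 genes.

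Levels of different genes were compared in TPM, which takes the length of each transcript into account, summed over all annotated transcripts of a gene, coding or not. *Ass1* had the highest level, with a median of 1448 TPM over the 6 livers (range 941 to 2812), followed by *Asl* at 653 TPM, *Arg1* at 505 TPM and *Sds* at 422 TPM. *Ass1* was above *Asl* in 6 of 6 livers, *Asl* above *Arg1* in 6 of 6, and *Arg1* above *Sds* in 5 of 6, although the ranges over all livers overlapped. The level of *Asl* depends on how Salmon divided its reads. Asl-201, of 864 bases, and Asl-206, of 923 bases, took 28.4% to 34.2% and 24.2% to 29.7% of them. Asl-202, of 2088 bases, took 21.1% to 23.7%. Without scaling to length, *Arg1* was above *Asl* in WT liver 1 and in *Sirt7* KO livers 1 and 3. The place of *Asl* under other divisions of its reads was not tested. A middle group followed, with *Hal* at 207 TPM, *Otc* at 182 TPM, *Cps1* at 180.0 TPM and *Gls2* at 161 TPM. Within it *Otc* was above *Cps1* in 3 of 6 livers and *Cps1* above *Gls2* in 4 of 6, so these neighbours did not differ beyond their spread. In this sum *Gls2* was above *Nags* in every liver with no overlap of the ranges, at 2.84 times its median level. *Nags*, at 56.8 TPM, and *Slc25a15*, at 47.5 TPM, were the lowest, and *Nags* was the higher of them in 6 of 6 livers. The order of these low genes turned when protein-coding transcripts alone were summed. *Gls2* was then at 19.9, 22.6 and 22.5 TPM in the WT livers and 20.0, 41.8 and 43.3 TPM in the *Sirt7* KO livers, and *Hal* at 17.4 to 25.5 TPM over all livers. Both were below *Nags* (29.6 to 55.1 TPM) and *Slc25a15* (36.9 to 63.0 TPM) in 6 of 6 livers. Only part of the reads of *Gls2*, *Hal* and *Nags* was assigned to coding transcripts. The summed level of the 10 genes was 3859 ± 239 TPM (SD, n = 3) in WT livers and 4614 ± 1785 TPM (SD, n = 3) in *Sirt7* KO livers. *Ass1* ranked 82nd by median TPM among all genes and *Cps1* ranked 605th.

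**Figure D4:**
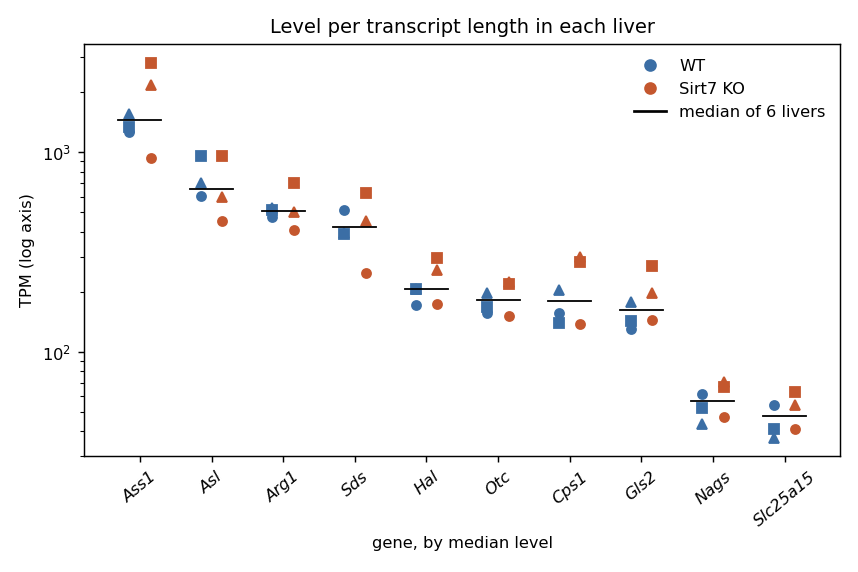
TPM of each gene, summed over all its transcripts, in each liver (log axis), with genes ordered by the median of the 6 livers (black line) and marker shape giving the liver number. *Ass1* has the highest median, 1448 TPM, and *Slc25a15* the lowest, 47.5 TPM, and *Gls2* and *Nags* are the only neighbours in this order whose ranges do not overlap.

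Pearson correlations of log2(CPM + 0.5) over the 6 livers are given as a description, since all points share the same libraries. All 45 pairs of the 10 genes had a positive r, with a median of 0.67 and 19 pairs above 0.7. The same count was not made for pairs of other genes, so how common such values are is not given. Differences between the genotypes and between the *Sirt7* KO livers both enter r. The highest were *Ass1* with *Gls2* (r = 0.97), *Cps1* with *Otc* (r = 0.93) and *Gls2* with *Hal* (r = 0.93), and the lowest were *Asl* with *Nags* (r = 0.12) and *Asl* with *Slc25a15* (r = 0.17). *Nags* and *Slc25a15*, the least abundant of the 10, correlated more with each other (r = 0.90) than with *Cps1* (r = 0.57 and 0.58). *Asl* was closest to *Arg1* (r = 0.85), the enzyme after it in the cycle.

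Reads were also divided among the annotated transcripts of each gene, as Salmon estimated them. In *Cps1*, *Otc*, *Ass1*, *Asl*, *Arg1*, *Slc25a15* and *Sds*, protein-coding transcripts took 96.9% or more of the reads in every liver, but in *Nags*, *Gls2* and *Hal* they did not. The coding reads of *Asl* were split among several transcripts. Asl-202, with 18 exons, took 21.1% to 23.7% over all livers, and Asl-201, with 9 exons, took 28.4% to 34.2%. Asl-206, with 11 exons, took 24.2% to 29.7%. In *Nags* the coding transcript Nags-201 took 89.8%, 80.5% and 73.5% in WT livers and 66.0%, 74.6% and 78.5% in *Sirt7* KO livers, and most of the rest went to Nags-203, a processed transcript. The genotypes overlapped. In *Gls2* the coding transcripts held 17.1% to 18.2% of the reads in WT livers and 18.8%, 20.1% and 27.9% in *Sirt7* KO livers, which did not overlap. *Sirt7* KO liver 1, at 18.8%, was close to the highest WT liver, at 18.2%. How often the coding shares of other genes separate in this way was not counted. Most of the remaining *Gls2* reads were assigned to Gls2-211 and Gls2-205, annotated for nonsense-mediated decay, and to Gls2-207, which retains an intron. Gls2-211 took 35.0%, 30.8% and 37.7% in WT livers and 46.9%, 29.1% and 21.9% in *Sirt7* KO livers, so *Sirt7* KO livers 1 and 3 held both extremes. In *Hal* the coding transcript Hal-202 took 29.2% to 31.5% in WT livers and 25.6% to 35.4% in *Sirt7* KO livers, and Hal-201, annotated for nonsense-mediated decay, took 48.1% to 61.1% over all livers. These shares were not tested. Hal-202 is 5319 bases long and its last exon runs far beyond that of Hal-201, with 2360 bases.

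Some of the letters that tell these transcripts apart are shown, since reads over such bases are among those that can divide the gene's total. Capitals mark the bases that 1 transcript has and the other lacks, with 15 bases of the neighbouring transcript sequence on each side, 5′ to 3′, from GENCODE M21. Hal-201 lacks an exon of 67 bases (chr10:93491099-93491165, plus strand) and the last 17 bases of a later exon (chr10:93503311-93503327, plus strand). Gls2-205 lacks an exon of 80 bases (chr10:128200886-128200965, plus strand), and Gls2-211 has 29 bases more at the start of an exon (chr10:128200144-128200172, plus strand).
Hal-202, 67-base exon: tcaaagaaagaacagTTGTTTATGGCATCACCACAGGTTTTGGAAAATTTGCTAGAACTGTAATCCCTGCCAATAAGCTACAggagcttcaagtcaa
Hal-202, 17-base exon end: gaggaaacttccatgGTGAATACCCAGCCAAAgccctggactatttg
Gls2-201, 80-base exon: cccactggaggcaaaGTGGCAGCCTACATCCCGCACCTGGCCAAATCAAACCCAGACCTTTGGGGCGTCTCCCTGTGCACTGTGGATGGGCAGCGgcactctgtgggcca
Gls2-211, 29-base exon start: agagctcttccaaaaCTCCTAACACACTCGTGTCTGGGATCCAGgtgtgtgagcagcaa
None of these lengths, each taken alone, is a multiple of 3, and no reading frame was examined.

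**Figure D5:**
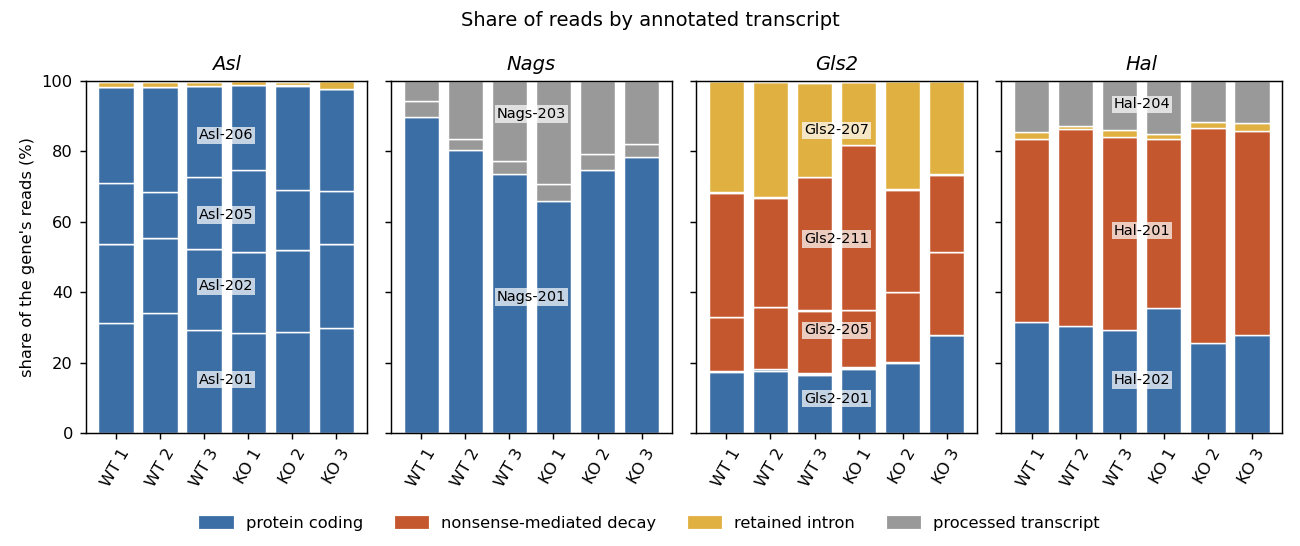
Share of the reads of *Asl*, *Nags*, *Gls2* and *Hal* (y axis, percent) that Salmon assigned to each annotated transcript in each liver, coloured by transcript type. In *Gls2* and *Hal* the coding transcripts hold 17.1% to 27.9% and 25.6% to 35.4% of the reads.

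Some reads could belong to other genes. Of the words of 31 bases in *Ass1* transcripts, 43.1% occur in the pseudogene *Gm5424* too, but *Gm5424* was at 0 in 3 livers and at 1.70 to 2.33 CPM in the other 3. *Sds* shares 24.6% of its words with 2 genes that overlap it on the opposite strand, mostly *Plbd2*, which had 1049 to 1970 reads per liver, and the protocol names no step that keeps the strand. *Nags* shares 14.4% with the antisense gene *Gm11586* (13 to 47 reads), and for the other 7 genes the share was 1.85% or less.

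RefSeq promoter windows of GRCm38.p6, from 250 bases before to 50 after a start site, were at hand for 5 of the 10 genes, *Ass1*, *Hal*, *Nags*, *Otc* and *Slc25a15*, with 2 windows for *Slc25a15*. In these windows 10 letter patterns were searched on both strands. TTNNGNAA, a loose form of the site bound by C/EBP factors, was found 5 times in *Hal*, at 2 places in *Otc* and at 1 in *Nags*, and not in *Ass1* or *Slc25a15*. It occurs in 40.7% of all 32851 windows. TATAAA (13.6% of windows) and CCAAT (37.4%) were each found once, in *Hal*, and TGACG, the core of the cAMP response element, once in *Nags* (20.8%). The other 6 patterns were not found in these windows: TGACGTCA (1.79% of all windows), TTGCGCAA (0.183%), TGTTCT (19.0%), CAAAGTCCA (0.475%), the palindromic glucocorticoid response element (0.00913%) and the HNF1 consensus (0.00913%). The windows of *Hal*, *Otc* and *Ass1* are shown for their contrast, with matches to any pattern in capitals, which overlap in *Hal* where CCAAT meets a TTNNGNAA match. The share of G and C was 47.7%, 44.3% and 74.0%, with a median of 52.7% over all windows.
Hal, chr10:93488518-93488817, plus strand: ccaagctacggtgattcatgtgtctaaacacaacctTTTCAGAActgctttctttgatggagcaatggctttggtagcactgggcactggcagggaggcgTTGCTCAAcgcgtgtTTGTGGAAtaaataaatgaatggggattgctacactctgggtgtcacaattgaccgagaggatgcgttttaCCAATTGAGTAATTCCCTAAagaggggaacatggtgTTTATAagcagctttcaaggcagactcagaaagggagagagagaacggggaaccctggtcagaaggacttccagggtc
Otc, chrX:10252055-10252354, plus strand: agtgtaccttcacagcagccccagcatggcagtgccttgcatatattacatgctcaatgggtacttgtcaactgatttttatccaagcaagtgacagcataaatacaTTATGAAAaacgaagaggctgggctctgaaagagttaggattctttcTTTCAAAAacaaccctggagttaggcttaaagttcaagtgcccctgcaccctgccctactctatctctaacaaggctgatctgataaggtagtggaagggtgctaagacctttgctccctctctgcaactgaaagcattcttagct
Ass1, chr2:31470020-31470319, plus strand: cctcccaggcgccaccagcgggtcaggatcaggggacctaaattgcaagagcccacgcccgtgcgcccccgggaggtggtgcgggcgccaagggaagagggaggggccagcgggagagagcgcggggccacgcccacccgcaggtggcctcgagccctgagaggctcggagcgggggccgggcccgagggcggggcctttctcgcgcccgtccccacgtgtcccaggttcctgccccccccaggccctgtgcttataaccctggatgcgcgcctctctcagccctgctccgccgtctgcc
A match is a run of letters only, and nothing was measured at these sites here.

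Other genes that supply or surround the cycle were counted by lists. None of their genes had an adjusted p under 0.05 in edgeR, and the counts at an unadjusted p under 0.05 are to be read against 6.54% of all tested genes higher and 4.78% lower in *Sirt7* KO livers. Among 10 genes for carriers and cofactors of the cycle, 1 was higher and 1 lower. *Slc38a3*, which takes glutamine into periportal hepatocytes, was at 545, 700 and 703 CPM in the WT livers and at 701, 1120 and 1026 CPM in the *Sirt7* KO livers (log2 fold change 0.55, standard error 0.21, adjusted p = 0.36 from edgeR). *Slc38a2*, a carrier of neutral amino acids, had a log2 fold change of -0.47 (adjusted p = 0.40 from edgeR). Of 10 tested enzymes that handle ornithine, glutamate and alanine, 1 was higher, *Got1*, the cytosolic aspartate transaminase, at 149, 99.3 and 96.7 CPM in the WT livers and 105, 367.5 and 201 CPM in the *Sirt7* KO livers. *Got1* thus also had *Sirt7* KO liver 1 within the WT range.

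Among 10 tested enzymes of serine, glycine and threonine breakdown, 2 were higher at that threshold and 0 lower. *Gcat*, which splits the product of threonine oxidation, had a log2 fold change of 0.70 (adjusted p = 0.33 from edgeR), and *Gldc*, of the glycine cleavage system, of 0.42 (adjusted p = 0.41 from edgeR). All 4 genes listed after *Hal* had a log2 fold change above 0, and 1 of them had an unadjusted p under 0.05, *Aldh1l1*, which oxidizes formyl groups carried by folate. *Aldh1l1* was at 686, 706 and 938 CPM in the WT livers and 801.5, 2224 and 1776 CPM in the *Sirt7* KO livers, with a log2 fold change of 1.04 (standard error 0.33, adjusted p = 0.29 from edgeR). Its order of livers had *Sirt7* KO liver 1 within the WT range, as in *Cps1*. Without *Sirt7* KO liver 1, which was an alternative chosen after the data were seen, the genes at an unadjusted p under 0.05 were 4 for carriers and cofactors, 4 for ornithine, glutamate and alanine, 4 for serine, glycine and threonine and 2 after *Hal*, all of them higher, where 17.1% of all tested genes were at that threshold in either direction. Of these, *Aldh4a1*, *Prodh*, *Gcat* and *Aldh1l1* then had an adjusted p under 0.05 in edgeR. The lists were counted again for this omission alone. Over all tested genes, 1.95% were called without *Sirt7* KO liver 1, and 0 genes without *Sirt7* KO liver 2 or without *Sirt7* KO liver 3. A call also needs a fold change over 1.5, and the share of all tested genes at the adjusted p alone is not given for this fit.

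Transcription factors, sirtuins and a receptor that bear on the cycle were compared in a list of 14 genes, of which 1 was higher and 2 were lower at an unadjusted p under 0.05. *Sirt4*, a mitochondrial sirtuin, was at 9.82, 8.89 and 9.39 CPM in the WT livers and 12, 14.0 and 15.1 CPM in the *Sirt7* KO livers, without overlap (log2 fold change 0.55, adjusted p = 0.32 from edgeR). *Cebpb*, a C/EBP factor, was at 56.9, 68.1 and 28.1 CPM in the WT livers and 34.1, 11.1 and 5.01 CPM in the *Sirt7* KO livers, with a log2 fold change of -1.60 (standard error 0.59, adjusted p = 0.36 from edgeR). *Foxo1*, a fasting factor held in check by insulin, had a log2 fold change of -0.40 (adjusted p = 0.42 from edgeR). The genotypes did not overlap in 1 higher gene of this list, *Sirt4*, and in 2 lower genes, *Foxo1* among them. Over all tested genes, 8.74% were higher and 8.09% lower without overlap. Of 11 targets of glucagon and glucocorticoids, 1 was higher, *Got1*, and 2 were lower. *Fkbp5*, a target of the glucocorticoid receptor, was at 42.6, 42.9 and 74.4 CPM in the WT livers and 20.2, 27.9 and 30.6 CPM in the *Sirt7* KO livers (log2 fold change -1.02, adjusted p = 0.19 from edgeR). *Per1*, a clock gene that glucocorticoids induce, had a log2 fold change of -0.90 (adjusted p = 0.37 from edgeR), and in both genes the genotypes did not overlap. The median log2 fold change of this list was -0.33, and 4 of its 11 genes were above 0, among them *Tat* (0.20) and *Tsc22d3* (0.096).

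Other genes named for the zones of the liver lobule did not follow a single direction. Of 12 other periportal genes, 4 were higher and 1 was lower at an unadjusted p under 0.05, and in 6 of the 12 the genotypes did not overlap, where 16.8% of all tested genes had none. *Aldh1b1*, a mitochondrial aldehyde dehydrogenase, was at 27.8, 45.4 and 45.7 CPM in the WT livers and 61.7, 144 and 98.5 CPM in the *Sirt7* KO livers (log2 fold change 1.35, standard error 0.31, adjusted p = 0.17 from edgeR). *Sult5a1*, a sulfotransferase, and *Cdh1*, E-cadherin, had log2 fold changes of 1.66 and 1.63 (adjusted p = 0.21 and 0.34 from edgeR), with low levels of at most 27.9 and 17.4 CPM. *Hsd17b13*, a protein of lipid droplets, went the other way, with 490.5, 827 and 604 CPM in the WT livers and 421, 307 and 299 CPM in the *Sirt7* KO livers (log2 fold change -0.90, adjusted p = 0.19 from edgeR). Among 11 tested pericentral genes, 2 were higher and 0 lower. *Gulo*, of ascorbate synthesis, was at 273, 288 and 308 CPM in the WT livers and 295, 579 and 580.2 CPM in the *Sirt7* KO livers (log2 fold change 0.74, adjusted p = 0.30 from edgeR). *Cyp1a2*, a cytochrome P450, was at 365, 477 and 489 CPM in the WT livers and 370, 981 and 1114 CPM in the *Sirt7* KO livers (log2 fold change 0.89, adjusted p = 0.39 from edgeR). In both pericentral genes, as in *Cps1*, *Sirt7* KO liver 1 was inside the WT range and livers 2 and 3 were above it. Without that liver, 3 periportal genes were higher and 2 lower at an unadjusted p under 0.05, 5 pericentral genes were higher and 0 lower, 1 regulator was higher and 4 were lower, and 1 hormone target was higher and 2 were lower, again beside 17.1% of all tested genes. At an adjusted p under 0.05, *Aldh1b1*, *Gulo*, *Cyp1a2* and *Cebpb* passed in edgeR in this fit, the only omission for which the lists were counted. Of all tested genes, 1.95% passed in this fit with a fold change over 1.5 as well. The share at the adjusted p alone is not given.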

How the data were processed

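RNA-seq of 6 livers (3 WT and 3 *Sirt7* KO mice, grouped by the labels) was used. The authors trimmed reads with Trim Galore 0.6.5 and quantified them with Salmon 1.2.1 on the GRCm38 mouse transcriptome. The annotation release is not given in the sources used here. The authors deposited estimated counts per transcript, not normalized, and TPM, scaled by Salmon to effective length and to a fixed total per liver.

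Of 140992 transcripts, 139791 matched a gene of GENCODE M21. Estimated counts were summed per gene and rounded. They were tested with edgeR 4.0.16 (R 4.3.3), by the quasi-likelihood test with TMM, filterByExpr (minimum count 10) and Benjamini-Hochberg adjustment over the 12524 tested genes. A call needed an adjusted p under 0.05 and a fold change over 1.5. The standard error is the log2 fold change divided by the root of the F statistic. The study's methods name DESeq2, and here DESeq2 1.42.0 and limma 3.58.1 served as alternatives. Exact permutation used log2(CPM + 0.5). The tests were run on simulated data before use. Levels between genes were compared in TPM, summed per gene. No mouse pairing entered the tests.

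The 10 genes and all lists were chosen with earlier results of these data known. Named from a list are its genes with an unadjusted p under 0.05, at most 4, or its top gene. Named as most alike are the 5 other tested genes with the highest correlation to the mean standardized profile of the 10. Mice of a genotype differed by more than sampling noise (chi-square of at least 16.9 per gene). Depth covers counting error only.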

Additional observations from a re-analysis of the deposited data

How the results depend on the processing

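Under every alternative run, 0 of the 10 genes were called. The count at an unadjusted p under 0.05 was 0 in the edgeR fit, where 11.3% of all tested genes had one. It was 3 without the filter on low counts (8.47% of 27881 genes) and 5 by limma-voom with sample quality weights (16.6% of all tested genes). DESeq2 gave 2 without and 1 with length offsets (5.16% and 5.37% of 27862 genes, low counts included). With single mice omitted it was 0 to 6 (7.59% to 17.1% of all tested genes). The 6 and the 17.1% were both without *Sirt7* KO liver 1. Over all genes the call of 1 gene became 2 with total counts, 2 with the length offset in edgeR, 2 by limma-voom, 60 with quality weights, 633 without the filter, 257 and 240 by DESeq2 without and with length offsets, 0 to 252 with single mice omitted (252 without *Sirt7* KO liver 1), and 925 at an unadjusted p with the same fold. The median log2 fold change of the 10 genes stayed between 0.16 (total counts, where the median of all genes was -0.11) and 0.41 (without *Sirt7* KO liver 1), with 0.17 as the lowest value when a mouse was left out.

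Signs turned for *Sds* at -0.034 with total counts and -0.058 with limma on log2(TPM + 1) and, with single mice omitted, for *Sds* (-0.24 without *Sirt7* KO liver 2 to 0.35 without liver 1), *Arg1* (-0.105 without *Sirt7* KO liver 2 to 0.26 without liver 1) and *Asl* (-0.44 without *Sirt7* KO liver 2 to 0.11 without WT liver 2, with 0.064 without *Sirt7* KO liver 1). The cause was not tested.

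Mice with the same number did not deviate together (r = 0.065, 0.080 and -0.044 across genes), so the numbers were not taken as pairs. With the replicate block in edgeR, 3 of the 10 genes (*Cps1*, *Gls2* and *Hal*) had an unadjusted p under 0.05, as did 11.4% of all tested genes. Over all genes, 41 were then called.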

Other observations

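The 5 tested genes outside the group whose level over the 6 livers was most like the mean standardized profile of the 10 genes were *Gsta3* (Pearson's r = 0.9945), *Zfp770* (0.9929), *Myl9* (0.9926), *Dmgdh* (0.9922) and *Slc25a1* (0.9905). *Gsta3*, a glutathione transferase, was at 682, 850.2 and 747 CPM in the WT livers and 579.5, 1456 and 1054 CPM in the *Sirt7* KO livers. *Dmgdh*, the mitochondrial dimethylglycine dehydrogenase of choline breakdown, was at 338, 395 and 362.5 CPM in the WT livers and 298, 582 and 487 CPM in the *Sirt7* KO livers. *Slc25a1*, the mitochondrial citrate carrier, was at 172, 218.5 and 209 CPM in the WT livers and 168, 329 and 274 CPM in the *Sirt7* KO livers. In all 3 genes *Sirt7* KO liver 1 was the lowest of the 6 livers and *Sirt7* KO livers 2 and 3 the highest. The genes were chosen by likeness to the profile over these same livers, so this order follows largely from the choice. *Zfp770* and *Myl9* were near the limit of detection, at no more than 1.59 and 3.29 CPM. With 6 points taken from the same libraries, and all tested genes compared, correlations of this size describe these livers alone.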
